A study of Homo sapiens with 2 samples.

Results

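The genes of the mitochondrial respiratory chain and ATP synthase were examined in a peak list of the transcription factor RFX6. Members were the nuclear protein-coding genes whose symbol begins with NDUF, UQCR, ATP5 or COX followed by 4, 5, 6, 7 or 8, and 92 of the 20033 protein-coding genes in the RefSeq table of GRCh38.p14 met this rule. The list came from chromatin immunoprecipitation and sequencing (ChIP-seq) of MHCC-97H cells, an established human hepatocellular carcinoma (HCC) line, that overexpressed RFX6 with an HA tag, so the intervals describe the overexpressed and not the endogenous protein. The study's methods name an anti-HA antibody for ChIP. The series consisted of 1 HA-RFX6 ChIP library and 1 input library of the same cells, and only the ChIP library had a file to analyse. There was no replicate, no precipitation from cells without the tag and no read count, so the depth was unknown and nothing could be tested between conditions. A peak list measures no expression, and the identity of the cell line could therefore not be checked with it. Of 12 hepatocyte and HCC marker genes, 1 (APOA1) had an interval at a gene end (8.33%), compared with 15.5% of all protein-coding genes.

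The respiratory chain passes electrons from NADH and succinate to oxygen and pumps protons across the inner mitochondrial membrane. Complex I takes electrons from NADH, complex III hands them from ubiquinol to cytochrome c, complex IV reduces oxygen, and ATP synthase uses the returning protons to make ATP. Most subunits are encoded in the nucleus, and the promoters of these genes are known for sites of NRF1, ETS family factors such as GABPA, and YY1. RFX proteins bind the X-box, an inverted repeat of a short core sequence.

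Each line of the list gives an interval and a whole-number score of unstated meaning, which was used only as a rank. The 5022 distinct intervals included 5019 on nuclear chromosomes, with scores from 13 to 170 and a median of 30. The submitters' processing notes name GRCh37, but the coordinates lie at gene ends of GRCh38. For 60.8% of the nuclear intervals the midpoint lay no more than 1 kb from a protein-coding gene end in GRCh38.p14, so all positions are given in that build. Gene ends of GRCh37 were not compared.

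Promoter sequences are shown first for members in which an interval lay over the start of the gene, with 1 or more examples from complexes I, III, IV and ATP synthase. Each run is the 250 bases before the start site listed by RefSeq (GRCh38.p14), 5′ to 3′ on the strand of the gene. Capitals mark every match, on either strand, to the motifs searched, which are given with their counts at the end of the results. The runs are COX5A (chr15:74938074-74938323, minus strand), COX8A (chr11:63974370-63974619, plus strand), NDUFS3 (chr11:47578824-47579073, plus strand), UQCRQ (chr5:132866392-132866641, plus strand), ATP5MJ (chr14:103921530-103921779, minus strand) and ATP5MC2 (chr12:53676084-53676333, minus strand).
COX5A: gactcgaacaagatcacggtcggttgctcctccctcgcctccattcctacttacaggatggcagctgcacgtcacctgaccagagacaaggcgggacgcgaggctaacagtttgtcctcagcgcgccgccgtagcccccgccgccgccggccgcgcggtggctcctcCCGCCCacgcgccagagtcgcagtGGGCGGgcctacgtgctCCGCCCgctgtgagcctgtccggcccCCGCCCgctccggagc
COX8A: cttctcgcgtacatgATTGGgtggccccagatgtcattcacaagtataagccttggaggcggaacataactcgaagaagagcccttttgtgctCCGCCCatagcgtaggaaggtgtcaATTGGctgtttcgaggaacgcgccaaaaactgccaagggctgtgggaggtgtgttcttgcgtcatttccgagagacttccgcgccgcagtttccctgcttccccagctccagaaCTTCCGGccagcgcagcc
NDUFS3: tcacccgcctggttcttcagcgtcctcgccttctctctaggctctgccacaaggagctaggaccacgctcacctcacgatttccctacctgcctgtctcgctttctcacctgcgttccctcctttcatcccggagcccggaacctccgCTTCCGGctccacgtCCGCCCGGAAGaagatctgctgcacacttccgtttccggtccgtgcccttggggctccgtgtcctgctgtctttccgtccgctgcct
UQCRQ: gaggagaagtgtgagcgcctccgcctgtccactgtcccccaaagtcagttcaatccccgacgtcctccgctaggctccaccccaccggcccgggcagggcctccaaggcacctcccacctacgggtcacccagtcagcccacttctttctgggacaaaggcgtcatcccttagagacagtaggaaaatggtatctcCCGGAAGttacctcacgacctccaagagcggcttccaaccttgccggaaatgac
ATP5MJ: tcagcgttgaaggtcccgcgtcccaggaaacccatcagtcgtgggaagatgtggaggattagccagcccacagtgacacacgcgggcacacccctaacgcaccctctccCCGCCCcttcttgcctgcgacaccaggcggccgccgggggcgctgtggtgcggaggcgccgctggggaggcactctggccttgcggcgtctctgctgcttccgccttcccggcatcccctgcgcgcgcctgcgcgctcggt
ATP5MC2: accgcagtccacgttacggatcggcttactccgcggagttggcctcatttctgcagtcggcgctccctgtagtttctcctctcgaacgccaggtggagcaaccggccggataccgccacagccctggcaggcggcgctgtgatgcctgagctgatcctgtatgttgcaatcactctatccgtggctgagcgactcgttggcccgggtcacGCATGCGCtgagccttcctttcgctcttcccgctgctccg

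In COX5A the 4 capital runs are GC boxes (GGGCGG or its complement). COX8A holds a pair of CCAAT boxes written as ATTGG, 1 GC box and 1 ETS site (CCGGAAG) that ends 12 bases before the start. In NDUFS3 the second ETS site overlaps a GC box, so that the 2 matches form a single capital run. UQCRQ has 1 ETS site, ATP5MJ has 1 GC box, and ATP5MC2 has 1 NRF1 site (GCGCATGC). The intervals covered all 250 printed bases of NDUFS3 and of ATP5MC2, 195 of ATP5MJ, 174 of COX5A, 164 of COX8A and 69 of UQCRQ.

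The question was how many of these genes carry an RFX6 interval and whether the complexes differ. An interval was counted at a gene end when its midpoint lay within 1 kb of either end, and 17 of the 92 members had at least 1 such interval (18.5%, 95% Wilson interval 11.9% to 27.6%). Of all protein-coding genes, 15.5% had one, and this background lay inside the interval of the members. A further 5 members had an interval in the gene body only, giving 22 members in all (23.9%, 16.4% to 33.6%) compared with 19.5% of all protein-coding genes. The remaining 70 members had none. The share of the members was therefore near the background, and a difference was not detectable with 92 genes. Confidence intervals cover the counting of genes only.

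Among the complexes, the highest share was seen for complex III, with 3 of 9 genes (33.3%, 12.1% to 64.6%). This rank was lost when each interval was given only to the nearest gene end, which left 1 of 9 genes. The intervals of UQCRH and UQCRQ then went to their neighbours. By that rule 13.4% of all protein-coding genes had an interval. The lowest was seen for ATP synthase, with 2 of 19 genes (10.5%, 2.94% to 31.4%). Complex I had 7 of 37 subunit genes (18.9%, 9.48% to 34.2%), and complex IV had 3 of 17 (17.6%, 6.19% to 41.03%). All of these confidence intervals overlapped and contained the background of 15.5%, so the order of the complexes was not distinguishable from equal shares. The complex I assembly factors (NDUFAF) had 2 of 8 genes (25%, 7.15% to 59.1%), compared with 15 of 82 subunit and synthase genes (18.3%, 11.4% to 28.01%), and this difference was also within the counting error. A pair of readthrough loci, ATP5MF-PTCD1 and NDUFC2-KCTD14, completed the 92 members and had no interval.

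**Figure D1:**
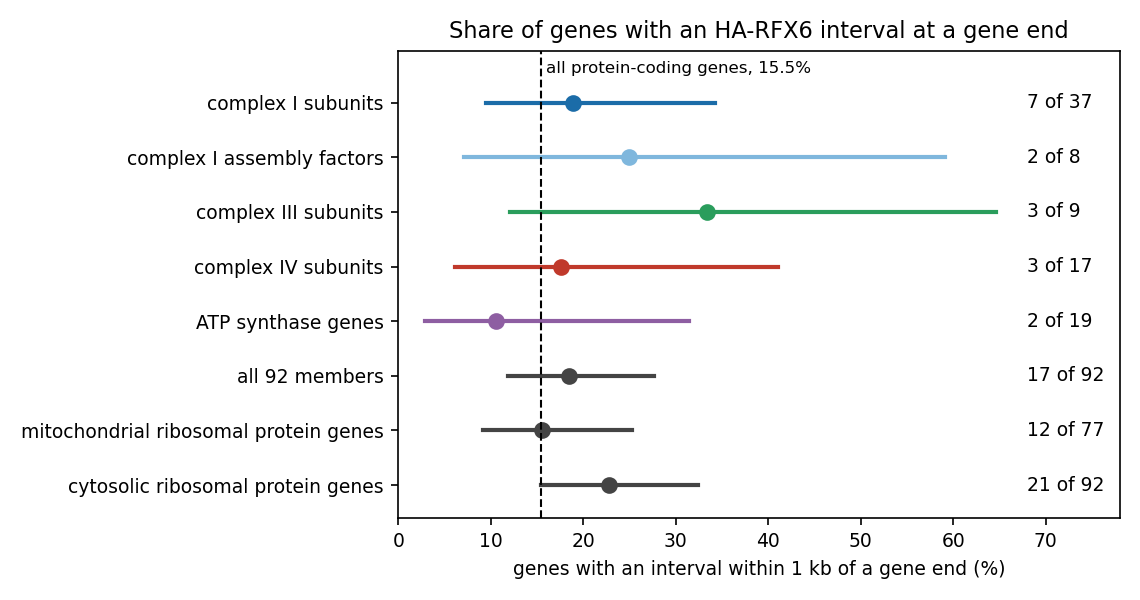
Share of genes (percent, x axis) with an HA-RFX6 interval whose midpoint lies within 1 kb of a gene end, by group (y axis). Points are shares, bars are 95% Wilson intervals, the dashed line is the background of 15.5%, and counts stand at the right; every bar reaches or crosses the dashed line.

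Complex I is the largest complex and its subunits divide into core subunits and accessory subunits. Of the 7 nuclear core subunits, 1 had an interval at a gene end (14.3%, 2.57% to 51.3%), compared with 15.5% of all protein-coding genes. This was NDUFS3, a core subunit of the hydrophilic arm. Its interval (chr11:47578755-47579311) was 557 bp wide, spanned the start of the gene and had scores from 34 to 73 on 4 lines. The highest of these exceeded the scores of 97.8% of nuclear intervals.

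Of the 30 accessory subunits, 6 had an interval at a gene end (20%, 9.51% to 37.3%), compared with 15.5% of all protein-coding genes. NDUFS6, a zinc-binding accessory subunit, had the highest score of the 6, 49 (chr5:1801476-1801754), with the midpoint 208 bp inside the start of the gene. NDUFB1 and NDUFB10, subunits of the membrane arm, had intervals over their starts with scores of 32 (chr14:92121496-92121709) and 25 (chr16:1959407-1959911). At NDUFA10, also of the membrane arm, an interval of score 27 (chr2:240025420-240025643) lay just outside the start, with its midpoint 189.5 bp upstream. NDUFV3, of the NADH dehydrogenase module, had a weak interval of score 15 (chr21:42892946-42893170), and 4.46% of nuclear intervals had a lower score. Thus the accessory subunits ranged from near the bottom of the list to a moderately high rank.

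NDUFA7 differed from the others, since its interval (chr19:8308018-8308596, score 27) was at the far end of the gene, 13068 bp from its own start. The same interval contained the listed start of CD320, the transcobalamin receptor gene, which lies on the same strand. NDUFC1, an accessory subunit of the membrane arm, had an interval of score 35 in the body (chr4:139295582-139295803), 5517.5 bp downstream of its nearest listed start. NDUFB7 and NDUFV2 had no interval by either count, although the nearest ones lay 1424 bp (score 17) and 2847 bp (score 22) outside these genes. The other complex I subunits without an interval had none within 5 kb.

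The assembly factors help to build complex I and are not part of the mature enzyme. NDUFAF6 carried the highest score of all members, 80 (chr8:94895299-94895584, rank 50 of 5019), with the midpoint 357.5 bp outside the low-coordinate end. Another 3 intervals lay within 1 kb of that end, with scores of 39, 22 and 21. The last 2 of these were also within 1 kb of an end of CCNE2, the cyclin E2 gene. That CCNE2 end lay 894 bp inside the NDUFAF6 end. The intervals of score 80 and 39 were more than 1 kb from it, and which gene they belong to was not tested. NDUFAF4 had an interval of score 13 (chr6:96897501-96897700), which is the minimum of the list. NDUFAF8 had no interval by either count, and the nearest (score 18) lay 1128 bp outside the gene. The 2 assembly factor genes that were counted therefore stood at opposite ends of the score range.

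In complex III, UQCRC1, a core protein on the matrix side, had an interval of score 73 (chr3:48609238-48609640), which tied with NDUFS3 for the second highest score of the members. It lay just inside the start of the gene, with the midpoint 207 bp downstream. UQCRQ, a small subunit of the complex, had an interval over its start (chr5:132866573-132866788, score 31). UQCRH, the hinge protein that contacts cytochrome c1, had one 532 bp upstream of its start with a score of 17 (chr1:46303064-46303268). UQCR11, another small subunit, had an interval with a high score, 64 (chr19:1602616-1603102), but 2603 bp inside the gene. The other complex III genes, UQCRHL included, had no interval.

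In complex IV, COX5A, a subunit on the matrix side, had an interval over its start (chr15:74937848-74938247) with scores of 42 and 58 on 2 lines, the latter exceeding 92.3% of nuclear intervals. COX8A, a small membrane subunit, had one of score 43 over its start (chr11:63974456-63975012). COX6C, also a small membrane subunit, had one of score 23 just inside its high-coordinate end (chr8:99893310-99893655). COX7A2L, which joins complexes III and IV into supercomplexes, had an interval of score 28 in the body by gene coordinates (chr2:42361263-42361670). The midpoint was 249.5 bp upstream of a start listed within the gene, so by the listed starts this was a promoter interval. None of the 6 complex IV genes known as tissue-specific isoforms (COX4I2, COX6A2, COX6B2, COX7A1, COX7B2 and COX8C) had an interval. The Wilson interval of this share reached 39.03%, which includes the 19.5% of all protein-coding genes with an interval at an end or in the body.

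Among ATP synthase genes, ATP5MJ, a small proteolipid of the membrane part, had the highest score, 48, in an interval over its start (chr14:103921511-103921724). A second interval, of score 13, lay inside the gene. ATP5F1D, the delta subunit of the F1 part, had intervals of score 34 (chr19:1244325-1244527) and 23 (chr19:1244741-1245136) at the high-coordinate end. ATP5MC2 is 1 of the 3 genes for the c subunit of the membrane rotor, and its interval of score 33 (chr12:53676028-53676501) was in the body by gene coordinates. It contained listed starts, however, and the midpoint was 65.5 bp downstream of the nearest. The sequence printed above belongs to another listed start inside the interval, at position 53676083. The 4 peripheral stalk genes and the inhibitor gene ATP5IF1 had no interval. The Wilson intervals of these shares reached 49.0% and 79.3%. Both include the 19.5% of all protein-coding genes with an interval at an end or in the body.

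**Figure D2:**
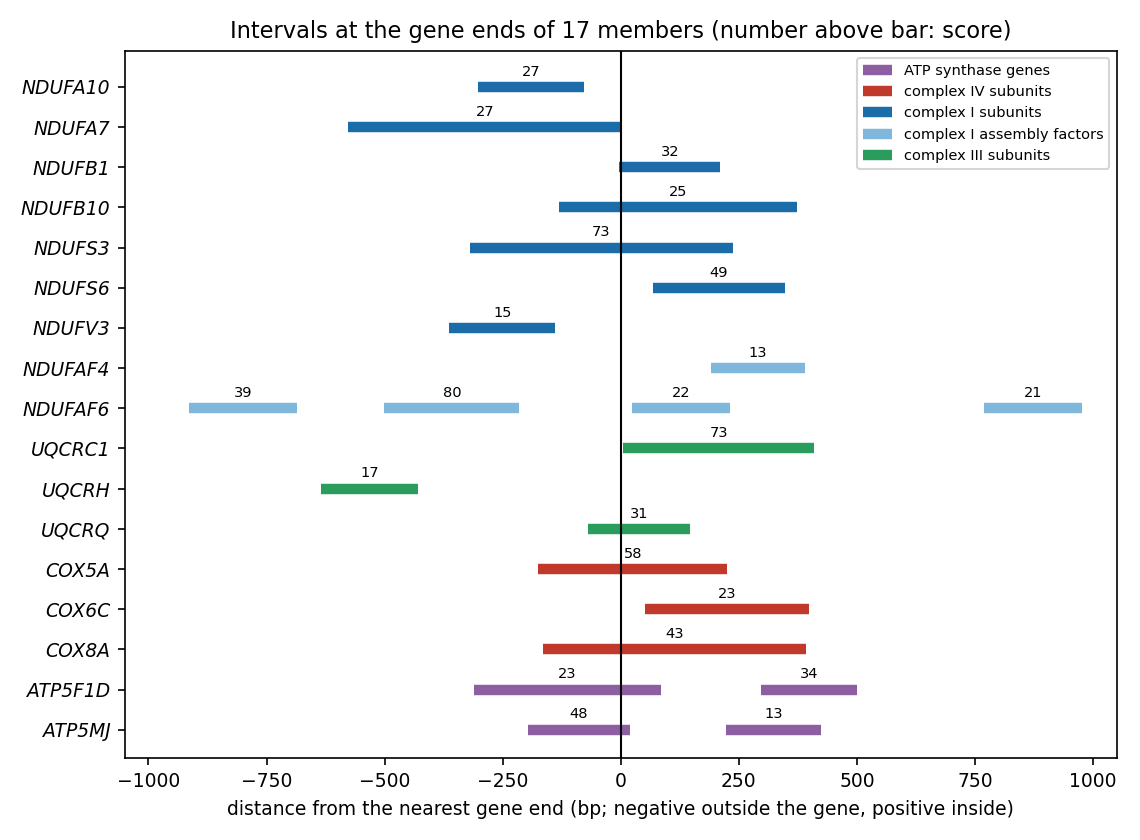
Position of the 22 intervals at gene ends of the 17 members (y axis), as distance in bp from the nearest gene end (x axis, negative outside the gene and positive inside). Bars span the width of each interval, colours give the group and numbers give the score; NDUFAF6 has 4 bars, ATP5F1D and ATP5MJ have a pair each, and the others have 1.

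The 27 intervals of the members were then compared with the rest of the list. Their median score was 32 (range 13 to 80), and the 22 at gene ends had a median of 29. The median was 30 for all nuclear intervals and 32 for the 3053 at protein-coding gene ends. Their median width was 230 bp, compared with 272 bp for all nuclear intervals. By complex, the median score was 32 for complex I (9 intervals), 47.5 for complex III (4), 35.5 for complex IV (4), 33 for ATP synthase (5) and 22 for the assembly factors (5). With 4 to 9 intervals in each group and overlapping ranges, these medians could not be told apart. Counting only scores of at least 30, 10 of the 92 members had an interval at a gene end, compared with 9.5% of all protein-coding genes. The 7 members lost were COX6C, NDUFA7, NDUFA10, NDUFAF4, NDUFB10, NDUFV3 and UQCRH.

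**Figure D3:**
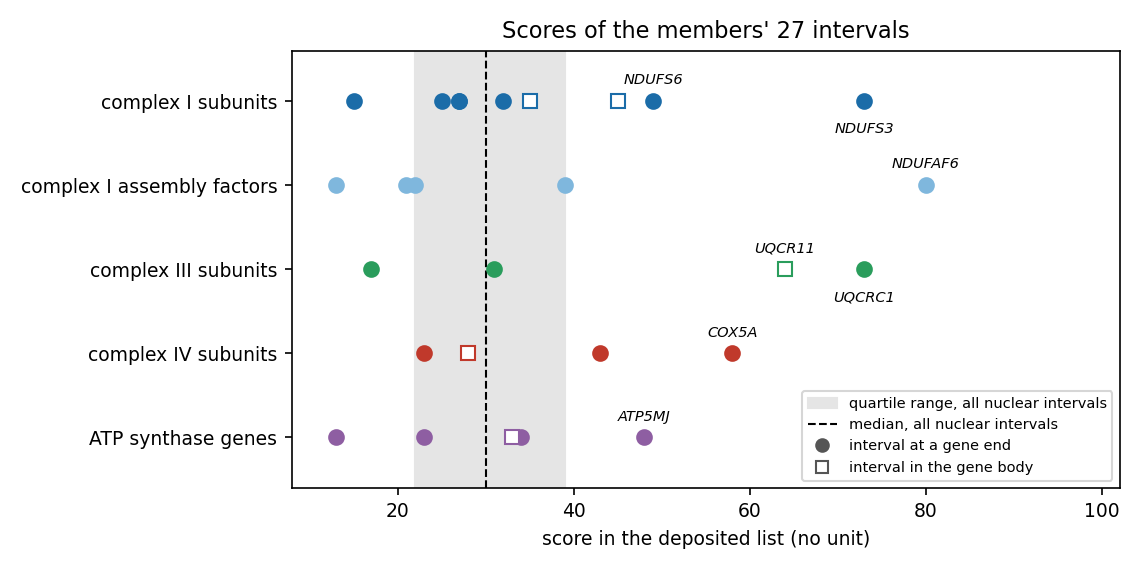
Score in the deposited list (x axis, no unit) of each of the 27 intervals of the members by group (y axis). Filled circles are intervals at gene ends, open squares are intervals in gene bodies, the grey band runs from 22 to 39 (quartiles of all nuclear intervals) and the dashed line is their median of 30; names are given for scores above 45.

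Position relative to the start was examined for the genes whose strand is given in the promoter table. Of the gene-end intervals of these genes, 14 (in 13 genes) were at the start and 1 (NDUFA7) was at the far end. The remaining 7 intervals belonged to ATP5F1D, COX6C and NDUFAF6, which were not in that table. The 14 had midpoints a median of 155 bp from the gene end, 9 inside and 5 outside the gene, and 7 of them contained a listed start. Of the 75 members in the promoter table, 15 (20%) had an interval within 1 kb of a listed start, compared with 16.3% of all protein-coding genes in the table.

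Next, the neighbours of the members were examined, since an interval between adjacent genes cannot be given to either. Of the 22 gene-end intervals, 10 (45.5%) were also within 1 kb of an end of another protein-coding gene, compared with 18.1% of the 3053 gene-end intervals in the list. As a result, 8 of the 17 members had only shared intervals (47.1%), compared with 29.7% of all protein-coding genes with an interval. For mitochondrial and cytosolic ribosomal protein genes with an interval, the shares were 41.7% and 33.3%. The 8 members were 5 complex I subunits (NDUFA7, NDUFB1, NDUFS3, NDUFS6 and NDUFV3), the assembly factor NDUFAF4, and UQCRH and UQCRQ of complex III. In contrast, the intervals at COX5A, COX6C, COX8A, ATP5F1D and ATP5MJ were not shared.

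The partners of the shared intervals were of various functions. NDUFS3 faces KBTBD4, a kelch protein gene on the opposite strand, with 104 bp between the gene ends, and the interval contained the listed starts of both genes. UQCRQ and GDF9, a growth factor gene, likewise lie on opposite strands with ends 9 bp apart, and the interval contained a listed start of each. At NDUFB1, the midpoint was 103.5 bp from its own start and 366.5 bp from that of CPSF2, a gene for messenger RNA 3′ end processing. At NDUFS6, it was 208 bp from its own start and 181 bp from an end of MRPL36, a mitochondrial ribosomal protein gene. The listed start of MRPL36 was 1778 bp from the midpoint. At UQCRH, the midpoint was 532 bp from its own start and 450 bp from that of LRRC41. Which gene of each pair an interval belongs to was not tested.

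Close neighbours were then counted for all members. Another protein-coding gene end lay within 1 kb for 46 of the 92 members (50%), compared with 28.5% of all protein-coding genes. Such a neighbour was also present for 54.5% of mitochondrial and 39.1% of cytosolic ribosomal protein genes. In members with such a neighbour, 11 of 46 had an interval at a gene end (23.9%, 13.9% to 37.9%), compared with a background of 22.3% for genes of this kind. In members without one, 6 of 46 did (13.04%, 6.12% to 25.7%), compared with a background of 12.8%. The split by neighbours was chosen after the data were seen. Within either kind of gene the share of the members was thus close to the background. Counting only intervals at the end of a single protein-coding gene, 9 members remained (COX5A, COX6C, COX8A, ATP5F1D, ATP5MJ, NDUFA10, NDUFB10, NDUFAF6 and UQCRC1), or 9.78%, beside 10.9% of all protein-coding genes. NDUFAF6 was kept by its intervals of score 80 and 39, which lay more than 1 kb from the CCNE2 end.

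**Figure D4:**
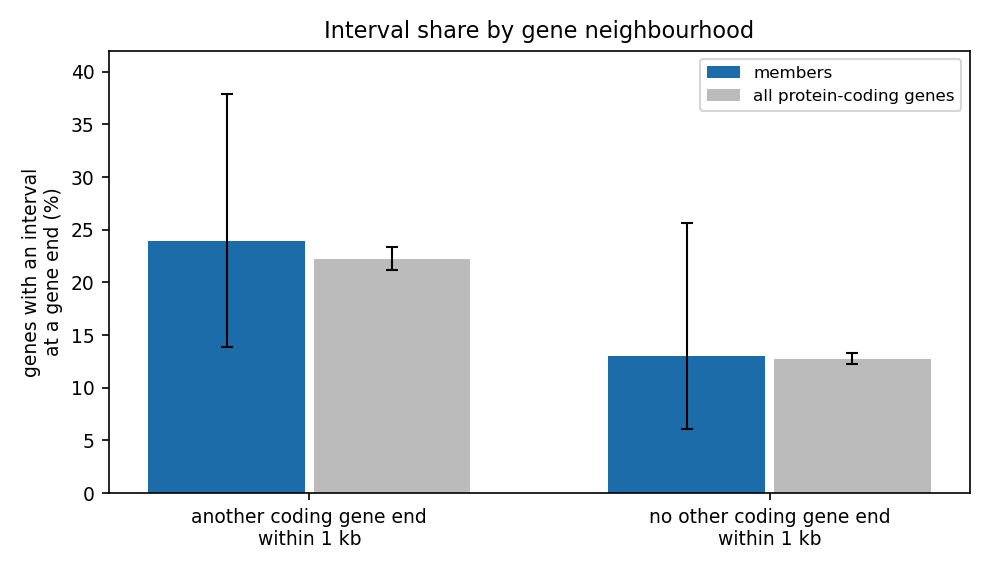
Percentage of genes with an interval at a gene end (y axis) for genes with and without another protein-coding gene end within 1 kb (x axis). Blue bars are the members (46 genes in each class), grey bars are all protein-coding genes (5709 and 14324), and error bars are 95% Wilson intervals; the blue and grey bars are of similar height in both classes.

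Genes of the same pathway outside the symbol rule gave a similar picture. Of 71 such genes, 15 had an interval at a gene end (21.1%, 13.2% to 32.0%), against 15.5% of all protein-coding genes. In the groups of this paragraph the shares ran from 16.7% to 25%, and each 95% Wilson interval contained that background. Complex II, which oxidises succinate, had 2 of 8 genes, namely SDHA, its flavoprotein subunit, with a score of 53, and the assembly factor SDHAF2 with 33. Of 12 genes for cytochrome c and for the remaining parts and assembly of complex III, CYCS, which encodes cytochrome c, had a score of 39 and UQCC3 had 27. Of 21 assembly factors of complex IV, 5 had an interval. These were COX10 (score 42), which acts in haem A synthesis, the copper chaperones COX17 (35), SCO1 (42) and SCO2 (33), and COA8 (28). Of 11 further complex I assembly factors, ECSIT had intervals of score 67 and 27 and FOXRED1 had one of 39. Of 5 assembly genes of ATP synthase, ATPAF1 had an interval of score 27. COX10 and COX17 had no other protein-coding gene end within 1 kb of the interval, as did the weaker interval of ECSIT, while the intervals of the other genes named here were shared.

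Regulators of mitochondrial gene expression were part of the 71 genes. Of 14 such genes, 3 had an interval at a gene end (21.4%, 7.57% to 47.6%), against 15.5% of all protein-coding genes. YY1 had one of score 76 (chr14:100238820-100239089), not shared with a neighbour. ESRRA, an orphan nuclear receptor known to act on respiratory chain genes, had a pair of intervals with the same score of 72, both also within 1 kb of an end of CATSPERZ, and an unshared one of 22. TFB2M, a mitochondrial transcription factor, had intervals of score 34 and 17, both also within 1 kb of an end of CNST. NRF1, GABPA and TFAM had none. Both YY1 and ESRRA scored higher than all members but NDUFAF6, NDUFS3 and UQCRC1, and YY1 scored higher than the latter pair too.

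Mitochondrial ribosomal protein genes, also nuclear and mitochondrial in function, had 12 of 77 with an interval at a gene end (15.6%, 9.15% to 25.3%). Cytosolic ribosomal protein genes had 21 of 92 (22.8%, 15.4% to 32.4%). The share of the respiratory chain and ATP synthase genes, 18.5%, lay between them, and the 3 confidence intervals overlapped. The families also differed in gene length, with medians of 9589 bp for the members, 8618 bp for mitochondrial ribosomal proteins, 5136 bp for cytosolic ones and 24130 bp for all protein-coding genes.

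Finally, promoter windows of 300 bases (250 before and 50 after a listed start) were searched. The 75 members in the table had 93 windows, and 13 of these, from 12 genes, were overlapped by an interval (13.98%), compared with 10.3% of all 22198 windows of protein-coding genes. The GC box (GGGCGG) was found in 10 of the 13, compared with 48 of the 80 windows that were not overlapped (60%) and 56.3% of all windows. Of all overlapped windows in the list, however, 81.5% held it. The ETS site (CCGGAAG) was in 3 of the 13 and 20 of the 80 windows, against 12.8% of all windows. The NRF1 site (GCGCATGC) was in 2 of the 13, both of ATP5MC2, and 13 of the 80, against 3.74% of all windows. The YY1 site (AAGATGG) was in 1 of the 13, that of UQCRC1, and 19 of the 80, against 6.04% of all windows. CCAAT was in 5 and 30, against 34.7%, and the letters TATAAA were in 0 and 7, against 9.47%. Of all overlapped windows in the list, 21.4% held the ETS site, 5.65% the NRF1 site and 7.09% the YY1 site. For CCAAT and TATAAA these shares were 34.1% and 2.71%.

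The X-box was searched on both strands as GTNNCC followed, after a spacer of 0 to 3 bases, by NGNAAC, where N is any base. It was in 0 of the 13 overlapped windows of members and in 7 of the 80 others, against 5.39% of all windows and 5.21% of all overlapped windows. The stricter core GTTGCC alone, which also falls within some X-boxes, was in 2 of the 13 (NDUFB1 and NDUFB10) and 7 of the 80, against 12.6% of all windows. A count of 0 in 13 windows allows a share of up to 23.1% by the approximation of 3 in 13 (not a Wilson interval). A difference from all windows was therefore not detectable. The 7 windows belonged to ATP5F1A, ATP5MK, COX6A2, COX7C, NDUFA2, NDUFA5 and NDUFC2-KCTD14. Examples are shown for ATP5F1A, the alpha subunit of F1 (chr18:46098297-46098546, minus strand), and NDUFA2, an accessory subunit of complex I (chr5:140647631-140647880, minus strand), which hold the X-box as the first capital run and had no interval. The later capitals are GC box and ETS matches in ATP5F1A. In NDUFA2 they are matches to the TATA motif, the CCAAT box and the GC box.
ATP5F1A: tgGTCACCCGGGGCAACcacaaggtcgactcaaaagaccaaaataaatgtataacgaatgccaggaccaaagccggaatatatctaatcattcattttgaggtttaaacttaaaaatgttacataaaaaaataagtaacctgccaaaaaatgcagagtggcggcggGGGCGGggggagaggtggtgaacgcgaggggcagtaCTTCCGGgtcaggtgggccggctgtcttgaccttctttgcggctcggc
NDUFA2: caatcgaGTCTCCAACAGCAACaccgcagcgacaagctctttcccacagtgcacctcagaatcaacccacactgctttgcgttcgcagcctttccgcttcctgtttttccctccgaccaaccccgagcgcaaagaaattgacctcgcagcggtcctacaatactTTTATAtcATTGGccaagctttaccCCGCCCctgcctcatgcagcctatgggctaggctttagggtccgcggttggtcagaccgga

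The overlapped windows of members had a median GC content of 62.7% (13 windows), compared with 59.2% in the 80 others and 69.7% in all 2284 overlapped windows. A motif match is a description of letters and was not tested as a binding site.

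**Figure D5:**
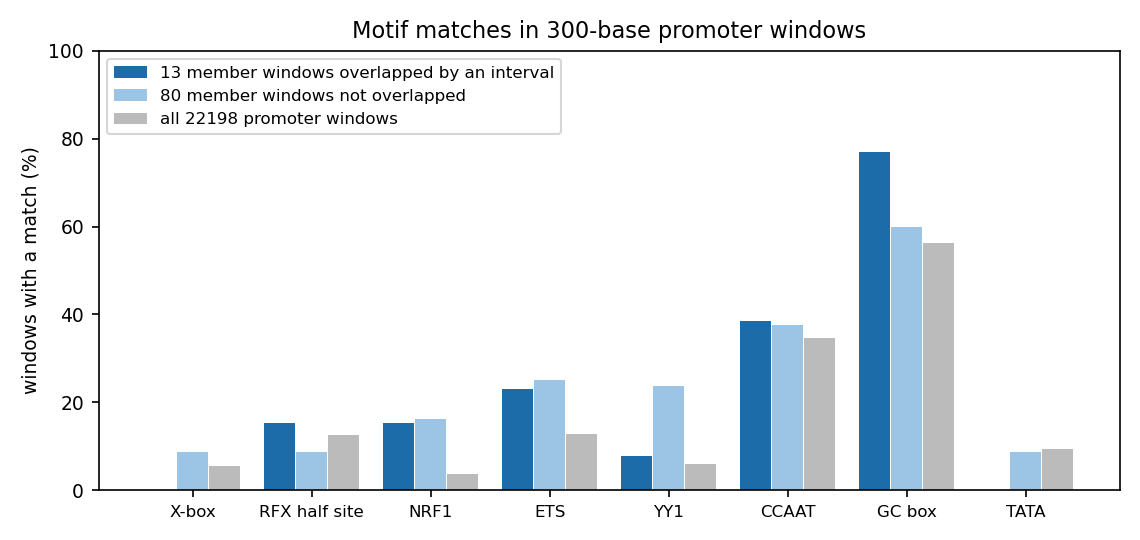
Percentage of promoter windows of 300 bases with at least 1 match (y axis) for each motif (x axis). Dark blue is the 13 member windows overlapped by an interval, light blue the 80 other member windows and grey all 22198 windows; the X-box and TATA bars are absent for the 13 windows, and the GC box bar is at 76.9%.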

How the data were processed

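ChIP-seq was done in MHCC-97H cells expressing HA-tagged RFX6. The authors called peaks with MACS2 2.1.0.2 on mapped reads at a q-value threshold of 0.01, and the deposited file holds a whole-number score per line in unstated units. The aligner is not given in the sources used here, and whether the input served as control is not stated. Samples were grouped by their titles.

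The 6214 lines were reduced to 5022 distinct intervals, each with its highest score, after mending 1 line with separated digits. Starts were taken as 0-based and printed 1-based. Gene ends, promoter windows and strands came from RefSeq tables of GRCh38.p14, the second covering 75 of 92 members. An interval counted at a gene end when its midpoint was within 1 kb, and in a body when it overlapped the gene by at least 1 bp. Shares carry Wilson intervals at 95%. No significance test was run, since there was 1 library. Members and lists were chosen with earlier results of these data known. Named were all members with an interval (1 of them is not reported here), those with one within 5 kb, and pathway genes with one at an end. Other score limits, windows, overlap rules and gene assignments were tried as alternatives. The counting was tested on simulated intervals. Python 3.11.15, numpy 2.4.6, pandas 2.3.3, scipy 1.17.1 and matplotlib 3.10.9 were used.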

Additional observations from a re-analysis of the deposited data

Results flagged for a closer look

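The mitochondrial genome encodes the remaining subunits of the respiratory chain and lies outside the rule for nuclear genes. It held 3 intervals, which were looked at because they are in data the comparisons did not use. All 3 were inside complex I genes, namely ND3 (positions 10121 to 10395, score 52), ND4 (11299 to 11637, score 45) and ND5 (13234 to 13548, score 47). Of the 13 protein-coding genes of the mitochondrial genome, 7 encode complex I subunits. These scores exceeded those of 88.4%, 80.8% and 83.8% of nuclear intervals. No read counts were available for these intervals, and how they arose was not tested.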

How the results depend on the processing

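The number of members with an interval at a gene end, 17, was within a factor of 1.5 under scores of at least 20, windows of 2 kb or 500 bp, any overlap, the nearest gene end, the start end only, and without readthrough loci and tissue isoforms. The share of all genes under these rules was 13.8% for scores of at least 20, 17.2% for 2 kb and 13.3% for 500 bp. It was 15.9% for any overlap, 13.4% by the nearest gene end, 15.1% for the start end only and 15.5% without readthrough loci and isoforms. The start end could be counted for 75 members. For scores of at least 30 the number of members was 10 (all genes 9.5%). Members with any interval fell from 22 (all genes 19.5%) to 14 (all genes 12.0%). With these scores complex I had 3 in place of 7 and the assembly factors 1 in place of 2. The assembly factors also had 1 for scores of at least 20 and for the start end only. The latter also left ATP synthase with 1 in place of 2, since ATP5F1D and NDUFAF6 have no strand in the table. By the nearest gene end (all genes 13.4%) complex I had 4 in place of 7 and complex III 1 in place of 3. NDUFA7, NDUFS6, NDUFV3, UQCRH and UQCRQ went to their neighbours by this rule. Alternatives added after seeing the data gave 9 for intervals at the end of a single protein-coding gene (all genes 10.9%). They gave 19 when listed starts were added (ATP5MC2 and COX7A2L, all genes 16.7%). With the genes now named COXFA4 added, the count was 18 of 95 (all genes 15.5%). No paired analysis was possible because the series gave a single peak list. The unknown depth limits every absence of an interval.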

Other observations

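COXFA4 and COXFA4L2 were formerly named NDUFA4 and NDUFA4L2 and would have met the symbol rule. COXFA4 had no interval. COXFA4L2 had 1 of score 32 (chr12:57235111-57235352), which also lay within 1 kb of an end of SHMT2. Of the 70 members without an interval, 18 had their nearest interval within 25 kb and 38 had it farther than 100 kb away. Chromosome 19 carried 12 members, more than any other chromosome, and 2 had an interval at a gene end, while 9.72% of all protein-coding genes on that chromosome had one. On chromosome X, 0 of 3 members had one, beside 2.95% of all protein-coding genes there.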
